A study of Mus musculus with 13 samples.

Results

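Genes that mark fat cells were examined in array measurements of dissected mouse quadriceps, a thigh muscle in which fat cells can lie between and around the muscle bundles. The 10 genes were taken from a list of fat cell genes, and all probe sets of each were read in every array as a measure of fat in the sample. The members were chosen with earlier results of these data known. Cyp2e1 was selected on measured values, by the likeness of its log2 signal to that of Adipoq across these arrays. Of the 10 genes, 7 had at least 1 probe set under their symbol (Adipoq, Retn, Scd1, Fabp4, Lipe, Car3 and Cyp2e1), out of 17097 genes named on the array. The other 3 (Cfd, the serine protease adipsin; Plin1, the coat protein perilipin of the lipid droplet; and Cidec, which drives droplet fusion in fat cells) were not analysed here, because no probe set carried their symbol in the annotation used. The 7 genes had 14 probe sets. All 13 mice were male C57Bl/6 animals aged 4 months on standard chow, with 1 array each. In the line labelled SKM-KO, 3 mice were set against 3 mice labelled C. In the line labelled SKM-Tg, 4 mice were set against 3 labelled Wt. The design names ablation and gain of function of DOR (now Trp53inp2), which were read as SKM-KO and SKM-Tg. The labels leave these abbreviations unexplained, give no promoter or Cre driver, and name no control for either line. Both pairings were read from the group names. In the sample titles, the animal numbers of C and SKM-KO share a range, apart from the range shared by Wt and SKM-Tg.

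Fat cells store triglyceride in a single large droplet and secrete hormones. Their gene program is driven by the transcription factors PPARG and C/EBP alpha and covers fatty acid synthesis, uptake and binding, coating of the droplet, and lipolysis. Some of its products are nearly restricted to fat cells (adiponectin, and resistin in mice), whereas others are also made in muscle tissue: FABP4 by capillary endothelium, and carbonic anhydrase 3 by muscle fibres. A bulk muscle sample therefore reads a mixture, and in it more fat cells cannot be told apart from more RNA per fat cell.

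Promoter windows were shown for 4 members: 3 whose signals moved together across arrays (Adipoq, Retn and Cyp2e1) and Lipe, which varied less. Each runs from 250 bases before to 50 bases after the start given by RefSeq for GRCm38.p6 and reads 5′ to 3′ on the gene's strand. The table of such windows held 7 of the 10 members; Fabp4, Scd1 and Car3 were not in it. Capitals mark any match, on either strand, of the box CCAAT, of the TATA box searched as TATAAA, or of the GC box searched as GGGCGG; a match on the other strand appears as the reverse complement. In Lipe a pair of GC box matches share bases.
Adipoq (chr16:23146286-23146585, plus strand): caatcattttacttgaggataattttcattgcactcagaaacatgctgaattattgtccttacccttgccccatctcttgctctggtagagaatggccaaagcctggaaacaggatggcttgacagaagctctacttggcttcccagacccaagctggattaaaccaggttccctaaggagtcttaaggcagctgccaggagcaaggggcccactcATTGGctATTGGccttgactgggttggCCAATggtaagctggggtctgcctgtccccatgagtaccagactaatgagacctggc
Retn (chr8:3655520-3655819, plus strand): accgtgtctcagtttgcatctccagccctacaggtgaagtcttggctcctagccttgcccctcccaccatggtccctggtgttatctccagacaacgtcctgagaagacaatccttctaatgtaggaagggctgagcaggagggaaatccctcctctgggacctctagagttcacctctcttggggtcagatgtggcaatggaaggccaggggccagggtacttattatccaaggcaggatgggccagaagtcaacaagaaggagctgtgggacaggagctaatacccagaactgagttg
Cyp2e1 (chr7:140763569-140763868, plus strand): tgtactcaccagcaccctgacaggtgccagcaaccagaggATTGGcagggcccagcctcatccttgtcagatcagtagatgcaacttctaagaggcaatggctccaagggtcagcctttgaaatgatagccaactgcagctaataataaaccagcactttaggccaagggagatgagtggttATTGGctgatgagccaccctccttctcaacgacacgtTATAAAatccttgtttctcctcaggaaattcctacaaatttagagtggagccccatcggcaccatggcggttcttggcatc
Lipe (chr7:25395938-25396237, minus strand): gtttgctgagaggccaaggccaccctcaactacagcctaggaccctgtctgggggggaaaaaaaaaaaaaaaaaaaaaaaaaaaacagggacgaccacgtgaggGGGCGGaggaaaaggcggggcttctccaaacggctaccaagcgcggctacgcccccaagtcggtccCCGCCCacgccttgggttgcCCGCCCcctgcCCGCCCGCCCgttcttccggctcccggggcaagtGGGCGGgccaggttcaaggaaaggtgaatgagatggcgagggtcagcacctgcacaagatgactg
The Adipoq window held 3 matches of CCAAT, and the Cyp2e1 window held 2 of these and 1 TATA box. The Retn window held none of the marked motifs. The Lipe window shown held 6 GC boxes and was 61.0% G and C, against a median of 52.7% over all windows. Lipe also had a window at another RefSeq start, not shown, which held none of the marked motifs. The GC boxes thus belong to the start shown and not to every Lipe start. CCAAT was present in 37.4% of 32851 RefSeq promoter windows, the TATA box in 13.6% and the GC box in 35.7%. The nuclear receptor half-site AGGTCA, searched on both strands as well, was present in 16.3% of windows and in 0 of the 9 member windows. No motif searched was present in all 3 genes whose signals moved together.

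Before the results on fat, the label of the SKM-KO arrays was checked on the targeted gene. Trp53inp2 read 8.58, 8.79 and 8.99 in SKM-KO, against 11.06, 11.19 and 11.15 in C (log2 signal). It read 11.11, 11.03, 11.28 and 11.24 in SKM-Tg, against 11.20, 11.46 and 11.00 in Wt. The SKM-KO signals were below all others, and SKM-Tg overlapped Wt. The tissue label fitted its markers in all arrays, since the mean log2 signal of 11 genes of fast fibres and muscle identity lay between 12.21 and 12.40. One array stood apart: Wt 2 had a median correlation of 0.907 with the other arrays, while the other 12 had values of 0.963 to 0.989. These were taken over the non-control probe sets with a mean log2 signal of at least 4.90. Values that rest on Wt are also given without Wt 2 for the members in each comparison.

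Adipoq, which encodes the fat cell hormone adiponectin, varied widely from mouse to mouse within groups. Its 1 probe set read 4.75, 8.20 and 4.49 in SKM-KO, against 5.56, 4.80 and 5.34 in C (log2 signal). It read 7.66, 9.84, 8.12 and 8.52 in SKM-Tg, against 6.31, 8.75 and 5.12 in Wt. One SKM-KO array was high while the other SKM-KO arrays were the lowest of all 13, and the 3 Wt arrays spread from near the level of C to above most of SKM-Tg. The filter on low signal was a log2 signal of 4.90, the median of all non-control probe sets, and Adipoq was below it in 3 arrays (SKM-KO 1, SKM-KO 3 and C 2). The highest array, SKM-Tg 2, lay 4.93 log2 units or 30.5-fold above the filter, and no fold is given against the arrays below it.

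By group, the Adipoq log2 signal averaged 8.53 ± 0.94 in SKM-Tg (SD, n = 4), 6.73 ± 1.85 in Wt (SD, n = 3), 5.81 ± 2.07 in SKM-KO (SD, n = 3) and 5.23 ± 0.39 in C (SD, n = 3). Each neighbour in this order overlapped the next: Wt 2 was above 3 of the 4 SKM-Tg arrays, and SKM-KO 2 was above 2 of the 3 Wt arrays and all C arrays. The SD within SKM-KO and Wt was of the size of the differences between group means.

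Retn encodes resistin, a hormone that mouse fat cells secrete. Its log2 signal was 6.53, 7.59 and 6.31 in SKM-KO, against 6.41, 6.25 and 6.49 in C. It was 7.47, 8.94, 7.60 and 7.62 in SKM-Tg, against 6.82, 7.98 and 6.34 in Wt. The same arrays were high as for Adipoq (SKM-KO 2, all of SKM-Tg, and Wt 2), with a smaller span of 2.69 log2 units. Retn lay above the filter in every array.

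Scd1 encodes stearoyl-CoA desaturase 1, which makes oleate from saturated fatty acid and is also active in liver. Its brighter probe set read 7.24, 10.63 and 6.96 in SKM-KO, against 8.79, 7.31 and 7.20 in C. In the other line it read 9.54, 11.28, 9.83 and 9.71 in SKM-Tg, against 8.98, 10.14 and 7.34 in Wt. C 1 was high for Scd1 but not for Retn or Cyp2e1, and otherwise the order was close to that of Adipoq. The span was 19.9-fold for this probe set and 20.6-fold for the second one, and the pair correlated at 0.99 over the 13 arrays.

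Cyp2e1 encodes a cytochrome P450 that oxidises ethanol and is best known from the liver. Since it was picked for following Adipoq, its values are a description. Its log2 signal was 5.28, 8.41 and 5.04 in SKM-KO, against 5.41, 6.31 and 5.88 in C. It was 8.57, 10.33, 9.18 and 9.15 in SKM-Tg, against 7.22, 9.89 and 5.25 in Wt. The span was 39.2-fold, again from SKM-KO 3 to SKM-Tg 2. Plasma proteins made by the liver did not share this order: in SKM-KO, the mean log2 signal of 6 of them was 4.88 to 5.21, against 5.27 to 6.69 in C, and over 13 arrays that mean correlated with Adipoq at -0.12. Within C, Cyp2e1 was highest in C 2, where the liver list was also highest, at 6.69; the part of liver RNA in the Cyp2e1 signal was not tested.

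**Figure D1:**
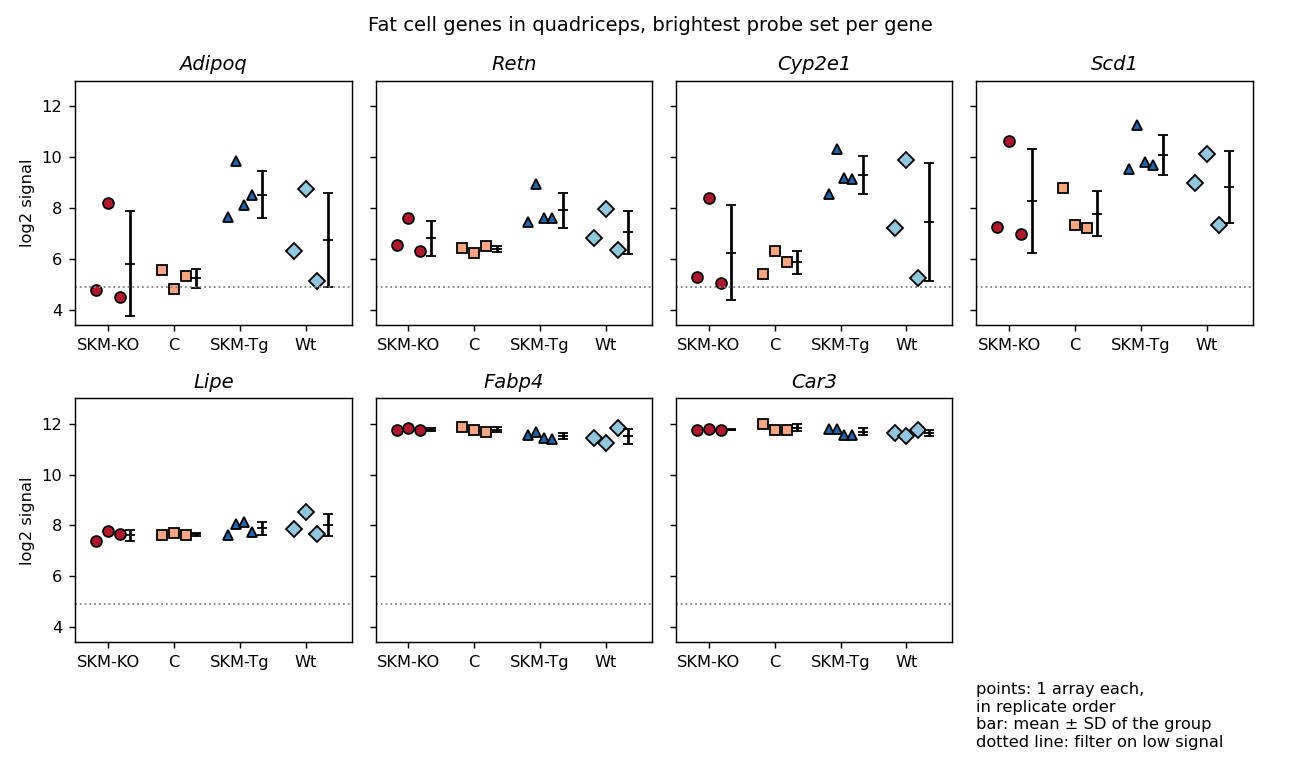
Log2 signal (vertical axis) of the brightest probe set of 7 fat cell genes in 13 arrays, by group; points are arrays in replicate order, bars show mean ± SD and the dotted line is the filter at 4.90. Adipoq, Retn, Cyp2e1 and Scd1 spread widely within SKM-KO and Wt, with SKM-KO 2 and Wt 2 high, whereas Lipe, Fabp4 and Car3 spanned 1.14, 0.64 and 0.49 log2 units.

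The brightest probe sets of the other 3 members spanned less. Lipe encodes hormone-sensitive lipase, which cleaves stored acylglycerols and is also present in muscle fibres. Its brighter probe set read 7.39, 7.79 and 7.65 in SKM-KO, against 7.60, 7.72 and 7.63 in C. It read 7.61, 8.04, 8.14 and 7.73 in SKM-Tg, against 7.86, 8.52 and 7.67 in Wt. The groups overlapped throughout, and Wt 2 was the highest of all arrays, in a span of 2.20-fold. The second Lipe probe set, with a mean of 3.97, lay below the filter.

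Fabp4 encodes the fatty acid carrier of fat cells and of capillary endothelium. Its brightest probe set was in the top 1% of the array, at the 99.5th percentile of probe set means. It read 11.74, 11.83 and 11.74 in SKM-KO, against 11.87, 11.75 and 11.68 in C. It read 11.55, 11.70, 11.44 and 11.42 in SKM-Tg, against 11.46, 11.23 and 11.83 in Wt. The lowest array was Wt 2, which was among the highest for Adipoq. Whether signals this bright follow changes in RNA as fully as dimmer ones was not tested. The dimmest of the 3 Fabp4 probe sets spanned more, with 7.21, 7.66 and 7.36 in SKM-KO and 7.07, 7.33 and 7.39 in C, and with 7.16, 7.04, 6.08 and 6.35 in SKM-Tg and 5.75, 5.71 and 7.35 in Wt. Its span of 1.95 log2 units ran the same way as that of the bright sets, with which it correlated at 0.88 and 0.91.

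Car3 encodes carbonic anhydrase 3, abundant in fat cells and in slow muscle fibres. Its brightest probe set, at the 99.6th percentile of means, read 11.76, 11.80 and 11.75 in SKM-KO, against 12.00, 11.78 and 11.77 in C. It read 11.80, 11.80, 11.56 and 11.56 in SKM-Tg, against 11.62, 11.51 and 11.76 in Wt. C 1 was the highest, and the other arrays lay between 11.51 and 11.80. A second bright probe set correlated with it at 0.92, and the 2 remaining sets, with means of 3.61 and 3.56, lay below the filter. Of the 14 member probe sets, 11 were above the filter, and all 7 genes had at least 1 of these.

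Over the 13 arrays, Adipoq correlated with Retn at 0.97 (Spearman 0.92), with Scd1 at 0.96 (Spearman 0.94) and with Cyp2e1 at 0.97, the last being the reason for its choice. Retn changed by 0.44 and Scd1 by 0.77 log2 units for each log2 unit of Adipoq. Without SKM-Tg 2 and Wt 2, the arrays farthest from the median of Adipoq, the correlations were 0.98 with Retn and 0.94 with Scd1. With each value taken relative to its group mean they were 0.94 and 0.94, so the genes also moved together apart from the group means. The order was not shared in each group: within C, Adipoq and Scd1 were highest in C 1 and Retn in C 3. Lipe correlated with Adipoq at 0.67, and at 0.56 without those 2 arrays. Fabp4 and Car3 had correlations of -0.54 and -0.39 with Adipoq (Spearman -0.49 and -0.07) and of 0.87 with each other. Without those 2 arrays the correlations with Adipoq were -0.59 and -0.45. Relative to the group means they were only -0.26 and -0.10, while that of Fabp4 with Car3 was 0.82. These are descriptions over arrays that share 1 normalization, and the genes were chosen with their values known.

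**Figure D2:**
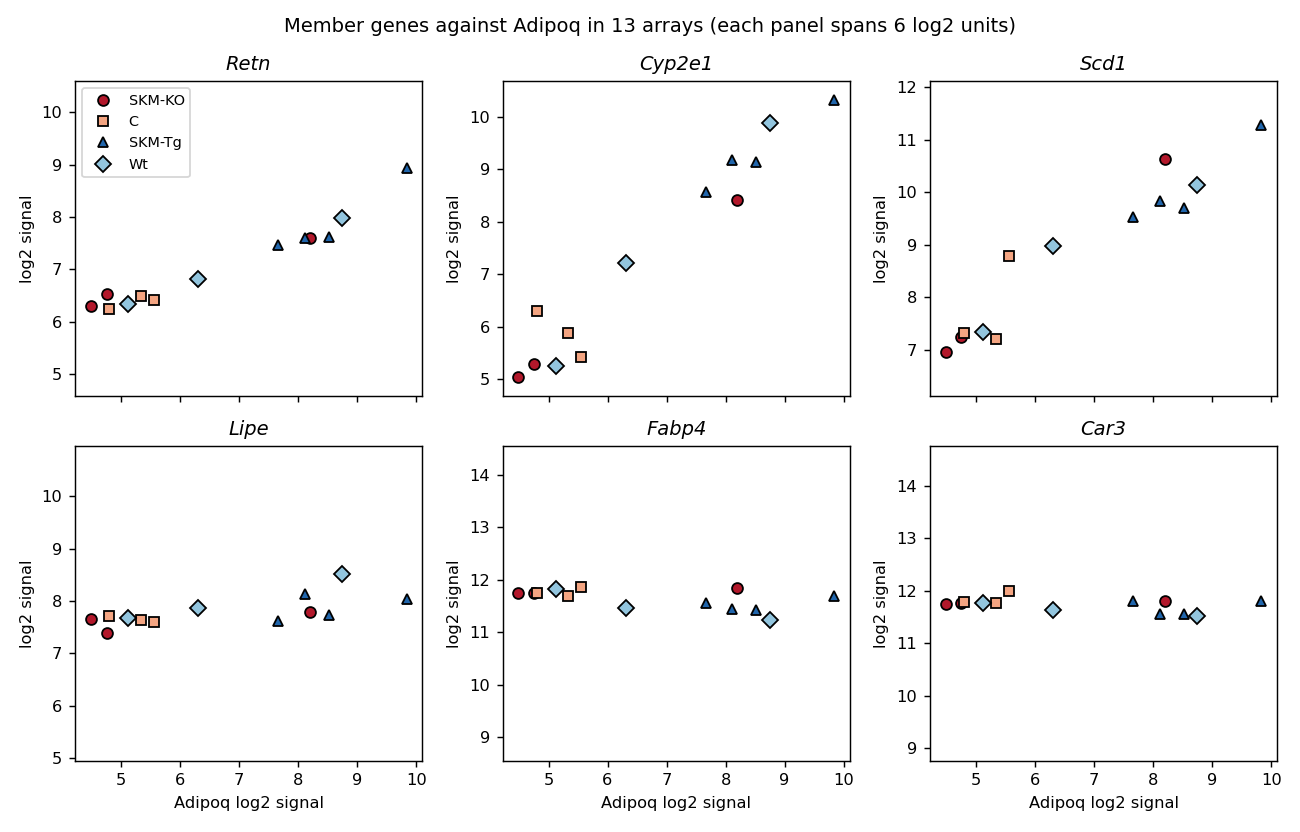
Log2 signal of 6 member genes (vertical axes, each panel spanning 6 units) against Adipoq (horizontal axis) in 13 arrays, with symbols for the groups. Retn, Cyp2e1 and Scd1 climb with Adipoq across groups (r of 0.97, 0.97 and 0.96), Lipe climbs less, by 0.11 log2 units per unit of Adipoq, and the brightest probe sets of Fabp4 and Car3 span 0.64 and 0.49 log2 units.

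In the spread of single mice around their group means, Cyp2e1, Adipoq and Scd1 ranked 1, 2 and 3 of 10411 genes tested, with residual SDs of 1.49, 1.43 and 1.33 log2 units. Retn ranked 54 (residual SD 0.65) and Lipe 2359 (0.28). Fabp4 and Car3 ranked 6261 and 8766, with residual SDs of 0.17 and 0.12. Cyp2e1 was chosen for its likeness to Adipoq, and the other members with earlier results of these data known, so all these ranks are descriptions.

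Markers of other cells were set beside Fabp4 and Car3. Over the 13 arrays, the mean log2 signal of 10 endothelial genes correlated with Fabp4 at -0.68 and with Car3 at -0.78, or at -0.50 and -0.70 without Wt 2. That of 3 red blood cell genes correlated with Fabp4 at -0.87 and with Car3 at -0.83, or at -0.79 and -0.82 without Wt 2. The mean of 7 slow fibre genes correlated with Car3 at -0.25 and with Adipoq at -0.48, or at -0.26 and -0.53 without Wt 2. The red blood cell mean was highest in Wt 2, at 8.70, and endothelium was also highest there, at 8.78. Wt 2 is also the array with the lowest Fabp4 signal. The endothelial genes did not move as 1 set, so their mean does not stand for each of them. In Wt 2, Cldn5 read 8.55, its highest value, while Tek read 7.14, below the other Wt arrays. With Adipoq, Cldn5 correlated at 0.61, but Tek at -0.74 and Kdr at -0.57. Single endothelial genes were not set against Fabp4 or Car3. The part of endothelium, red blood cells and slow fibres in the Fabp4 and Car3 signals was not tested.

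A fat index summarised each array as the mean, over the 6 members other than Cyp2e1, of the log2 signal minus the gene's mean over all arrays. It was 0.67 in SKM-KO 2, -0.74 in SKM-KO 1 and -0.82 in SKM-KO 3, against -0.27, -0.70 and -0.62 in the C arrays. In the SKM-Tg arrays it was 0.30, 1.29, 0.48 and 0.45, against -0.13, 0.72 and -0.63 in the Wt arrays. The 6 highest arrays were the 4 of SKM-Tg with SKM-KO 2 and Wt 2, and SKM-KO held both the third highest and the lowest array. The brightest probe sets of Fabp4 and Car3, which enter the index, spanned 0.64 and 0.49 log2 units. The index therefore moves mainly with Scd1, Adipoq and Retn, with which it correlated at 0.98, 0.99 and 0.97, each being part of it. Its correlation was 0.66 with Lipe, but -0.45 with Fabp4 and -0.29 with Car3. Relative to the group means, those of Fabp4 and Car3 were -0.15 and 0.04.

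The comparison of SKM-KO with C asks whether ablation of Trp53inp2 changed the fat cell genes. None of the 6 members tested passed in limma's test, at an adjusted p of 0.05 over all genes tested, or at an unadjusted p of 0.05. For comparison, 0.00961% of the genes tested (1 gene, Trp53inp2) passed with adjustment and 0.557% without. Adipoq differed by 0.58 log2 units (SE 0.99, 95% interval -1.55 to 2.72, limma adjusted p 1.0), Retn by 0.43 (SE 0.46) and Scd1 by 0.51 (SE 0.92). Lipe, Fabp4 and Car3 differed by -0.04, 0.00 and -0.08, the widest interval being -0.48 to 0.40 for Lipe. SKM-KO 2 carried the positive values: without it, Adipoq stood at -0.61 and Scd1 at -0.66, and Retn at 0.04. No member had all SKM-KO arrays above all C arrays, as 4.66% of all genes did. Of these 6 members, 4 were positive, with a median of 0.22, while 54.0% of all genes were positive, with a median of 0.01. Cyp2e1, not tested, was at 0.38, and at -0.71 without SKM-KO 2.

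The comparison of SKM-Tg with Wt concerns the line read as gain of function, in which the Trp53inp2 signal differed from Wt by -0.06 (limma adjusted p 0.886). The point estimates were larger here, but none of the 6 members passed in limma's test. Without adjustment 0 of 6 had a p under 0.05, against 6.89% of all genes; with adjustment 0% of all genes passed. Adipoq differed by 1.81 log2 units, or 3.50-fold (SE 0.92, 95% interval -0.19 to 3.81, limma adjusted p 0.702). Retn differed by 0.86 (SE 0.43, interval -0.06 to 1.78, adjusted p 0.702) and Scd1 by 1.27 (SE 0.86, interval -0.59 to 3.13, adjusted p 0.702). Cyp2e1 stood at 1.85. Lipe, Fabp4 and Car3 differed by -0.14, 0.02 and 0.05.

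Positive values in SKM-Tg minus Wt were found for 5 of these 6 members, with a median of 0.45, while 37.8% of all genes were positive, with a median of -0.05. The size depended on single Wt arrays. Adipoq was at 2.82 without Wt 2 and at 1.01 without Wt 3, Retn was at 1.32 and 0.51 (adjusted p 0.702 without Wt 2), and Scd1 was at 1.93 and 0.53. Without Wt 2, Lipe stood at 0.12, Fabp4 at -0.12 and Car3 at -0.00765. With array quality weights, which gave Wt 1 a weight of 7.23 and Wt 2 and Wt 3 weights of 0.15 and 0.23, Retn passed the threshold at 1.43 (limma adjusted p 0.0247, in a range of 0.0247 to 0.966 over all settings tried), as did 14.3% of all genes. No member separated the groups: the Wt 2 array overlapped SKM-Tg for Adipoq, Retn, Scd1 and Cyp2e1. Over all genes, 1.18% had every SKM-Tg array above every Wt array.

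**Figure D3:**
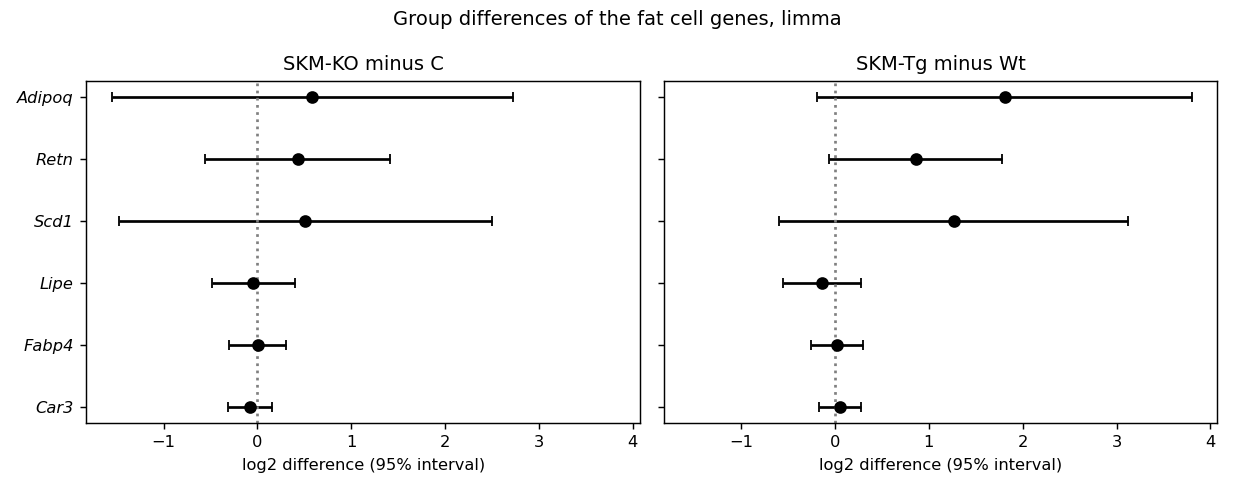
Log2 difference (horizontal axis) of 6 fat cell genes in SKM-KO minus C (left) and SKM-Tg minus Wt (right), with 95% intervals from limma. All 12 intervals cross 0, and those of Adipoq (-1.55 to 2.72 and -0.19 to 3.81) and Scd1 are the widest.

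The difference of these effects, SKM-Tg minus Wt less SKM-KO minus C, was 1.22 for Adipoq (SE 1.35, limma adjusted p 0.989), 0.43 for Retn and 0.76 for Scd1. It was -0.10 for Lipe, 0.02 for Fabp4 and 0.13 for Car3. Of these 6 members, 5 were positive, with a median of 0.28, while 38.3% of all genes were positive. The sizes depended on single arrays. With 1 array left out, the lowest values were those lacking Wt 3, at 0.42 for Adipoq, 0.08 for Retn and 0.02 for Scd1. The highest were 2.42 for Adipoq and 1.93 for Scd1, both lacking SKM-KO 2, and 0.90 for Retn, lacking Wt 2. Without Wt 2, Adipoq stood at 2.23 and Scd1 at 1.42. In the fit of all arrays no member passed, at the adjusted threshold (0.0192% of all genes did) or at an unadjusted p of 0.05 (3.10% of all genes did).

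The 2 groups read as controls were compared as well. No label states whether the C mice carry a modified allele. The animal numbers of C and Wt lie in separate ranges, and the part of line or cohort in this comparison was not tested. In Wt minus C, Adipoq stood at 1.5 (SE 0.99), Retn at 0.66, Scd1 at 1.05 and Lipe at 0.37. Fabp4 stood at -0.26 (SE 0.14, limma adjusted p 0.217) and Car3 at -0.22 (SE 0.11, adjusted p 0.209). None of the 6 had an unadjusted p under 0.05, although 27.8% of all genes did, while 0.00961% passed with adjustment. The other member probe sets were tested in a fit of every probe set. There the second bright one of Car3 stood at -0.32 (unadjusted p 0.0119, limma adjusted p 0.147). The second bright one of Fabp4 stood at -0.39 (unadjusted p 0.0376, adjusted p 0.166) and the dimmest of Fabp4 at -1.0 (unadjusted p 0.0239, adjusted p 0.151). Array quality weights brought Fabp4 (-0.27, adjusted p 0.00408) and Car3 (-0.18, adjusted p 0.0230) past the threshold, in ranges of 0.00408 to 0.770 and 0.0230 to 0.694 over all settings tried, together with 55.6% of all genes. Leaving out Wt 3 did so for Fabp4 (-0.43), with 39.6% of all genes. Without Wt 2, Adipoq stood at 0.49, Retn at 0.20, Scd1 at 0.39, Lipe at 0.11, Fabp4 at -0.13 and Car3 at -0.16. Of these 6 members, 4 were positive over all arrays, with a median of 0.51, and 58.8% of all genes were positive, with a median of 0.06. This comparison shares the C arrays with SKM-KO minus C and the Wt arrays with SKM-Tg minus Wt.

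Other fat cell markers gave a mixed picture. Of 32 listed outside the members, 28 were named on the array and 21 lay above the filter. Their correlation with the fat index had a median of 0.42, against 0.11 over all 10404 genes outside the members, and 5 of the 21 reached 0.8. These were Trarg1, which regulates the trafficking of the glucose transporter GLUT4 (0.94), Hp, the haemoglobin-binding protein haptoglobin (0.94), Aoc3, a copper amine oxidase of the fat cell surface (0.90), Cebpa, a transcription factor of fat cell differentiation (0.87), and Ces1d, a carboxylesterase (0.80). Hp read 5.57, 6.74 and 5.59 in SKM-KO, against 5.74, 6.23 and 5.72 in C. It read 6.74, 8.22, 7.31 and 7.34 in SKM-Tg, against 6.25, 7.56 and 5.33 in Wt. Its 3 highest arrays outside SKM-Tg were Wt 2, SKM-KO 2 and Wt 1, closely followed by C 2. In C 2 the mean of the liver list was also highest, at 6.69, and the part of liver RNA in the Hp signal was not tested. In this list 17 of 21 genes were positive in SKM-KO minus C (median 0.10) and 13 of 21 in SKM-Tg minus Wt (median 0.06).

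Some defining markers were near the lower end of the scale. Lep, the hormone leptin, lay below the filter on average, with 5.42 in SKM-Tg 2 and 3.53 to 4.22 in the other 12 arrays. Acvr1c, an activin receptor prominent in fat cells, also lay below it, at 4.18 to 5.56, with its highest value in SKM-Tg 2 and a correlation of 0.93 with Adipoq. Pparg, the master regulator of fat cell formation, lay above the filter, spanned 1.01 log2 units and correlated with the fat index at 0.42, and at 0.10 without SKM-Tg 2 and Wt 2. Pparg thus spanned far less than Adipoq.

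The steps of fat metabolism differed in how far they followed the index. Among genes of fatty acid and triglyceride synthesis, 4 of 14 reached a correlation of 0.8: Fasn, fatty acid synthase (0.92), Pcx, pyruvate carboxylase (0.82), Slc25a1, the mitochondrial citrate carrier (0.81), and Me1, the cytosolic malic enzyme (0.81). Fasn read 6.08, 7.60 and 5.74 in SKM-KO, against 6.25, 5.76 and 5.97 in C. It read 6.44, 7.63, 6.92 and 6.30 in SKM-Tg, against 6.30, 7.29 and 5.74 in Wt. SKM-KO 2, SKM-Tg 2 and Wt 2 stood above the rest, as for Scd1.

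Among droplet coat and lipolysis genes, 1 of 15 reached 0.8 (Bscl2, seipin, which acts in droplet formation, at 0.84), and the median was 0.30. In fatty acid uptake and binding, 0 of 9 did, with a median of -0.24. Of 13 fat cell transcription factors, Cebpa alone did, with a median of 0.47. Of the 8 adipokines and other secreted products, Hp alone did, with a median of 0.57. Rbp4, the retinol-binding protein of plasma, reached 0.77, and 0.56 without the 2 arrays farthest from the median index.

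Brown and beige fat genes followed Adipoq less closely. The mean of 7 of them correlated with Adipoq at 0.26, and 0 of the 7 reached 0.8 with the index. That mean was highest in SKM-KO 2, at 7.93. Ucp1, the uncoupling protein that defines brown fat, ranged from 4.47 to 5.94. It correlated with the index at 0.45, and at 0.54 without SKM-Tg 2 and Wt 2. Cidea, a droplet protein of brown fat, read 5.93, 7.0 and 5.97 in SKM-KO, against 5.97, 5.99 and 5.93 in C. It read 6.03, 5.97, 6.79 and 5.99 in SKM-Tg, against 5.80, 5.90 and 5.82 in Wt. SKM-KO 2 and SKM-Tg 3 stood out, while SKM-Tg 2, the highest for Adipoq, did not. Cidea correlated with the index at 0.40, and at 0.69 without SKM-Tg 2 and Wt 2.

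Over the 7 lists of fat genes, 73 genes outside the members were tested and 0 passed limma's adjusted threshold in any of the 4 comparisons. Without adjustment, 0 of 73 had a p under 0.05 in SKM-KO minus C, as 0.557% of all genes did. In SKM-Tg minus Wt 5 did, against 6.89% of all genes: Slc27a4, Fam13a, Mlxipl and Cav1 were lower (-0.39 to -0.26) and Hp was higher (1.02). In the difference of the effects 2 did, against 3.10% of all genes, both negative (Fam13a and Dio2). In Wt minus C 26 of 73 did, 20 of them positive, where 27.8% of all genes had such a p. In SKM-KO minus C 72.6% of the 73 were positive (median 0.09), and in SKM-Tg minus Wt 43.8% (median -0.03).

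Markers of other cells that could accompany fat were set beside Adipoq. In the stromal progenitor list, Pdgfra, Dpp4, Pi16 and Dlk1 lay below the filter, and the mean of the other 5 genes ranged from 7.19 to 7.44 in SKM-KO, against 7.24 to 7.46 in C. In SKM-Tg it was 6.94 to 7.45, against 7.23 to 7.54 in Wt, and it correlated with Adipoq at -0.09. The means of 9 macrophage and 8 matrix genes correlated with Adipoq at -0.11 and -0.33, that of 5 nerve and Schwann cell genes at 0.56 and that of the 3 red blood cell genes at 0.52, the last pair being 0.49 and 0.44 without Wt 2. In the 9 lists of other cell types, 0 of 64 genes passed limma's adjusted threshold in any comparison. Without adjustment 6 had a p under 0.05 in SKM-KO minus C, against 0.557% of all genes: 5 liver plasma proteins were lower (Apoa1, Apoa2, Apoc3, Ttr and Alb), and Mal, of the nerve list, was higher. In SKM-Tg minus Wt 2 did, against 6.89% of all genes, both lower (Cd68 of macrophages and Kdr of endothelium). In the difference of the effects 4 did, against 3.10% of all genes: Apoc3, Apoa1 and Alb were positive and Cd68 negative. In Wt minus C 10 did, 6 of them positive, against 27.8% of all genes.

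The genes most like the fat index were searched over the 10404 genes tested outside the members. Of these, 9 had a correlation of at least 0.9 over 13 arrays (5 of them also without SKM-Tg 2 and Wt 2), and 38 reached 0.8 (14 of them also without those 2). The 15 highest were Ifi27l2a (0.96), an interferon-induced gene, Slc36a2 (0.96), a proton-coupled amino acid transporter, Acp5 (0.95), tartrate-resistant acid phosphatase, Car5b (0.95), a mitochondrial carbonic anhydrase, Trarg1, Hp, Prkar2b (0.93), a regulatory subunit of cAMP-dependent protein kinase, Fasn, Ankrd24 (0.90), Aoc3, Trf (0.88), the iron carrier transferrin, Spc24 (0.87), a kinetochore protein, Cebpa, Slc1a5 (0.87), a glutamine transporter, and Tkt (0.86), transketolase. Without the 2 arrays their correlations ran from 0.76 to 0.96, and relative to the group means from 0.77 to 0.97.

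Ifi27l2a read 5.99, 7.54 and 5.84 in SKM-KO, against 5.77, 5.98 and 5.98 in C. It read 7.43, 8.92, 7.47 and 7.63 in SKM-Tg, against 6.53, 8.24 and 6.16 in Wt. Car5b read 5.26, 6.94 and 5.71 in SKM-KO, against 5.32, 5.44 and 5.53 in C. It read 6.63, 8.51, 7.30 and 7.10 in SKM-Tg, against 6.56, 7.76 and 5.79 in Wt. Both had SKM-KO 2 and Wt 2 well above the other arrays of their groups. Of the 15 genes, 14 were positive in SKM-KO minus C and 15 in SKM-Tg minus Wt, which their choice by the index favours, and 0 passed limma's adjusted threshold in either. Without adjustment, Hp (limma p 0.0497) and Ankrd24 (limma p 0.0310) had a p under 0.05 in SKM-Tg minus Wt, as did 6.89% of all genes. Both had a limma adjusted p of 0.702.

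**Figure D4:**
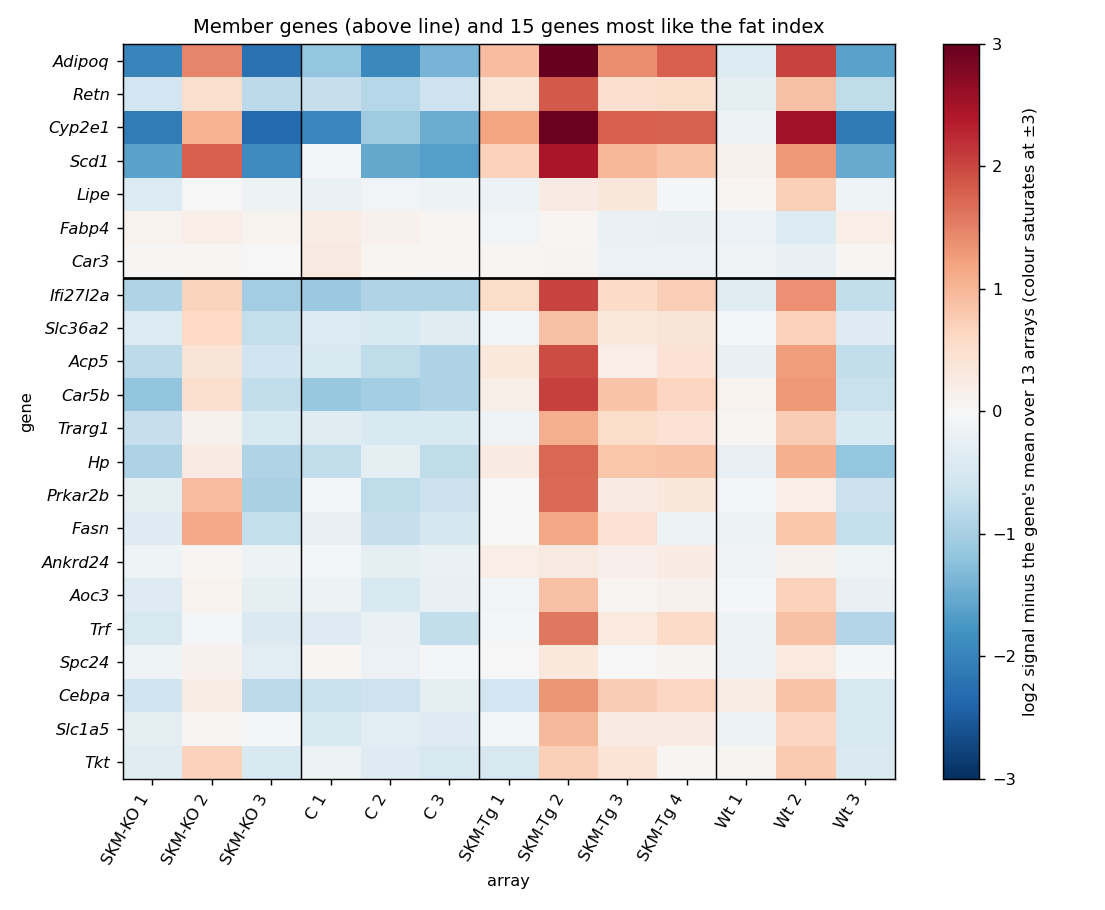
Log2 signal minus the gene's mean over 13 arrays (colour, saturating at ±3) for the 7 measured fat cell genes (above the line) and the 15 genes most like the fat index, by array in the order SKM-KO, C, SKM-Tg and Wt. SKM-KO 2, the 4 SKM-Tg arrays and Wt 2 are high for Adipoq, Retn, Cyp2e1 and Scd1 and for most of the 15 genes, and SKM-Tg 2 is the highest for Adipoq, at 9.84.

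At the other end, 6 genes had a correlation of -0.8 or lower with the index and 0 reached -0.9. The 5 lowest were Esrrg (-0.83), an orphan nuclear receptor of oxidative muscle, Mxra7 (-0.83), Parp14 (-0.83), an ADP-ribosyltransferase, Cnpy4 (-0.81) and Cavin4 (-0.81), a caveolar protein of muscle. Esrrg read 8.21, 8.25 and 9.14 in SKM-KO, against 8.15, 8.85 and 8.69 in C. It read 7.94, 7.40, 7.90 and 7.72 in SKM-Tg, against 8.15, 7.92 and 8.38 in Wt. SKM-KO 2 was not low for Esrrg although its fat index was high.

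With the log2 signal of Adipoq added to the fit as a covariate, an alternative added after the data were seen, the count of genes past limma's adjusted threshold stayed at 1 in SKM-KO minus C (Trp53inp2, at -2.36). It became 1 in SKM-Tg minus Wt, where Rasd2, a small GTP-binding protein chosen after its values were seen, stood at -1.88 (adjusted p 0.0333). In that comparison Retn stood at 0.08 and Cyp2e1 at 0.07 with the covariate, and Scd1 at -0.32. Cyp2e1 was picked for following Adipoq, and Retn and Scd1 correlated with Adipoq at 0.97 and 0.96. Smaller values with the covariate follow from that likeness and are no test of fat content. In Wt minus C, Rab4a, a GTP-binding protein of endosomes, passed without the covariate (1.06, adjusted p 0.0460), and 0 genes passed with it. Adipoq varies within groups and differs between them, so the covariate and the group are not separate.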

How the data were processed

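Total RNA of quadriceps from 13 mice (25 ng per sample, amplified isothermally and labelled with biotin, per the labels' protocols) was hybridised to Affymetrix mouse arrays of perfect-match probes. The authors deposited log2 signals for 45141 probe sets, made with RMA, per the submitters' processing notes; its version is not given in the sources used here. RMA normalizes all arrays together, and the array medians were 4.85 to 4.94. An array has no read depth, so the number of arrays limits the precision. No batch label is given.

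Of 45037 non-control probe sets, 28898 had 1 gene symbol in the platform annotation, 551 had several and 15588 had none here; only the first kind was used. A gene took its brightest probe set, and 10411 of 17097 genes with a mean of at least 4.90 were tested. All 13 arrays entered 1 fit in limma 3.58.1 (R 4.3.3) with 1 mean per group, two-sided tests and Benjamini-Hochberg adjustment. The fit was tested on simulated data. All 7 measured members passed the filter, Adipoq through its high arrays.

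Members, lists, tests and alternatives were chosen with earlier results of these data known. Named genes were all members, the 15 highest and 5 lowest correlations with the fat index, up to 5 genes per fat list by that correlation, up to 3 per other list by range, and Trp53inp2. The replicate numbers follow accession order and pair nothing. Whether the mice of a group came from separate litters is not stated. Alternatives were other normalizations, filters, probe set summaries, eBayes settings, array weights, separate fits, arrays left out, and Adipoq as a covariate.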

Additional observations from a re-analysis of the deposited data

Results flagged for a closer look

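Single arrays far from the other 3 of their group were looked for in SKM-Tg, the only group of at least 4 arrays. The 89 items were probe sets, genes and the fat index, and 8 were marked. Chance alone would mark about 1 in 20 items drawn without regard to their values. That rate does not apply here. Many items were picked by correlation with the fat index, which is highest in SKM-Tg 2, or by range over the arrays. SKM-Tg 2 stood above the other SKM-Tg arrays for Retn (8.94), for both probe sets of Scd1 (11.28 and 11.36), for Ifi27l2a (8.92) and for Acp5 (7.0). These 5 share 1 mouse. SKM-Tg 3 stood apart for Cidea (6.79, high), Hba-a1, a haemoglobin chain (12.37, high), and Postn, the matrix protein periostin (4.89, low).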

How the results depend on the processing

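The results rest on 3 or 4 arrays a group, and the controls of the lines were assigned from the group names, since no label names them. Leaving out 1 array gave a count of 1 gene past limma's threshold in SKM-KO minus C throughout, 0 to 30 in SKM-Tg minus Wt, 1 to 2 in the difference of the effects and 0 to 4119 in Wt minus C; both high counts came without Wt 3. Array weights gave 1487, 227 and 5787 genes in the last 3 comparisons. In SKM-KO minus C, averaging the probe sets of a gene gave 2 genes and every probe set by itself gave 3. In the difference of the effects, median centring, the filter at the 75th percentile, every probe set by itself, Adipoq as a covariate, and leaving out both SKM-KO 2 and Wt 2 gave 1 each. In SKM-Tg minus Wt the covariate gave 1. In Wt minus C, quantile normalization, cyclic loess, no filter, a separate fit, the covariate, and leaving out both arrays gave 0, the mean of probe sets gave 2 and every probe set gave 4. The covariate and the removal of both arrays were chosen after seeing the data. A separate fit cannot give the difference of the effects. The causes were not tested.

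Of 590 member values with a test under these alternatives, 4 passed the threshold, all with array weights or without Wt 3. Signs turned as follows. With single arrays left out, SKM-KO minus C ran from -0.61 to 1.25 for Adipoq, -0.66 to 1.17 for Scd1, -0.13 to 0.0701 for Lipe and -0.0398 to 0.0517 for Fabp4. SKM-Tg minus Wt ran from -0.00765 to 0.11 for Car3, -0.12 to 0.19 for Fabp4 and -0.31 to 0.12 for Lipe, and the difference of the effects from -0.12 to 0.18 for Fabp4 and -0.27 to 0.16 for Lipe. Without both SKM-KO 2 and Wt 2, SKM-KO minus C was -0.61 for Adipoq, -0.66 for Scd1 and -0.0289 for Fabp4, SKM-Tg minus Wt was -0.00765 for Car3, -0.12 for Fabp4 and 0.12 for Lipe, and the difference was -0.0869 for Fabp4 and 0.25 for Lipe. Cyp2e1, given without a test, was 0.38 in SKM-KO minus C, -0.71 without SKM-KO 2 (also with Wt 2 left out) and -0.20 with the covariate. Cyclic loess gave -0.00614 for Fabp4 in SKM-KO minus C. Array weights gave Lipe 0.0171 in SKM-KO minus C, 0.0377 in SKM-Tg minus Wt and 0.0206 in the difference. With the covariate, Scd1 was -0.000595 in SKM-KO minus C, -0.32 in SKM-Tg minus Wt, -0.26 in Wt minus C and -0.31 in the difference, and Retn was -0.10 in the difference. No paired analysis was possible because the labels give no replicate numbers.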
